A study of Sus scrofa with 9 samples.

Results

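The cornified envelope is the protein shell that squamous cells assemble beneath their membrane as they move to the surface of a stratified lining. Precursor proteins are joined to each other by transglutaminases, protease inhibitors hold back the enzymes that loosen surface cells, and transcription factors of the grainyhead-like family drive the genes of the program. In esophageal lining the program runs in the upper layers, above a basal layer that divides and anchors the epithelium, while mucous and serous glands lie below in the submucosa.

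Here 10 genes of that program were followed: CRNN, SPRR1B, PPL, SCEL and CNFN (structural proteins of the envelope and upper layers), TGM1 (the cross-linking enzyme), A2ML1 and SPINK5 (protease inhibitors), GRHL3 (a regulator) and RHCG (a membrane transporter). They were found by gene symbol among probe sets annotated with exactly 1 symbol, and all 10 were measured, out of 12217 genes tested. The platform annotation names the probe set of SPRR1B as SPRP, and the RefSeq gene table gives SPRR1B as a synonym of that gene. CNFN had 2 probe sets that held the same values on all 9 arrays and was counted once. No filter on low values was applied, so every gene of the set entered every test.

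Gene expression was measured on 9 Affymetrix PorGene 1.0 ST arrays, with 1 RNA sample each. Esophageal submucosal glands (ESMG) and the squamous tissue above them came from control pigs 37, 39 and 40, so each of these pigs gave 1 array of either tissue. Spheroids were grown in vitro from ESMG and are labelled pig 1, 2 and 3; the labels do not tell whether these are other animals than the tissue donors. They grew in growth-factor-reduced Matrigel under Advanced DMEM/F12 with B27, N2, 10 mM HEPES and 50 ng/ml of recombinant human EGF, a medium that the tissues did not see. RNA of the tissues and of the spheroids was isolated with different kits (RNeasy Universal Mini and RNeasy Micro), so kit, culture and cell makeup cannot be told apart in any spheroid comparison. The sources used here give no breed, sex or age, and no detail of how either tissue was dissected.

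Values are log2 RMA levels, in which a difference of 1 is a 2-fold difference. Levels of different probe sets are not on a common scale and are compared within a gene only. A gene was called where limma's moderated test gave a Benjamini-Hochberg adjusted p under 0.05 over all 12217 genes together with a difference of at least 2-fold. Groups held 3 arrays each, which limits the precision, and the median standard error of a log2 difference was 0.17.

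Marker lists were set beside the labels. These lists were chosen with earlier results of these data known, so they are no independent check of the labels. Of 26 measured gland and duct genes, 19 were higher in ESMG than in squamous tissue and 0 lower, with 2.65% of all genes called higher there. The mean level of that list was 9.63 to 10.26 on the ESMG arrays, 7.14 to 8.12 on the squamous arrays and 8.21 to 8.38 on the spheroid arrays. AGR2, a folding factor for mucins, lay at 12.56 ± 0.37 in ESMG, 6.51 ± 1.57 in squamous tissue and 11.90 ± 0.22 in spheroids (SD, n = 3 each). KRT5, a keratin made by basal cells of squamous lining, was high in all groups, at 12.85 ± 0.38, 13.29 ± 0.13 and 13.75 ± 0.11 in that order. The ESMG array of pig 40 had the lowest gland level of its group (9.63, against 10.26 and 10.22), and the squamous array of pig 37 had the highest of its own (8.12, against 7.14 and 7.17). On these bulk samples, fewer cells of a type and less RNA per cell cannot be told apart.

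All 10 genes were ordered the same way by their group means, with squamous tissue highest, ESMG next and spheroids lowest; 21.2% of all tested genes had that order. Cornulin (CRNN), a calcium-binding protein of the upper squamous layers, read 12.68, 12.72 and 12.66 in squamous tissue of pigs 37, 39 and 40. It read 12.15, 12.12 and 12.54 in ESMG of the same pigs, and 8.06, 7.93 and 8.70 in spheroids 1, 2 and 3. The tissue arrays lay close together and all spheroid arrays far below them.

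**Figure D1:**
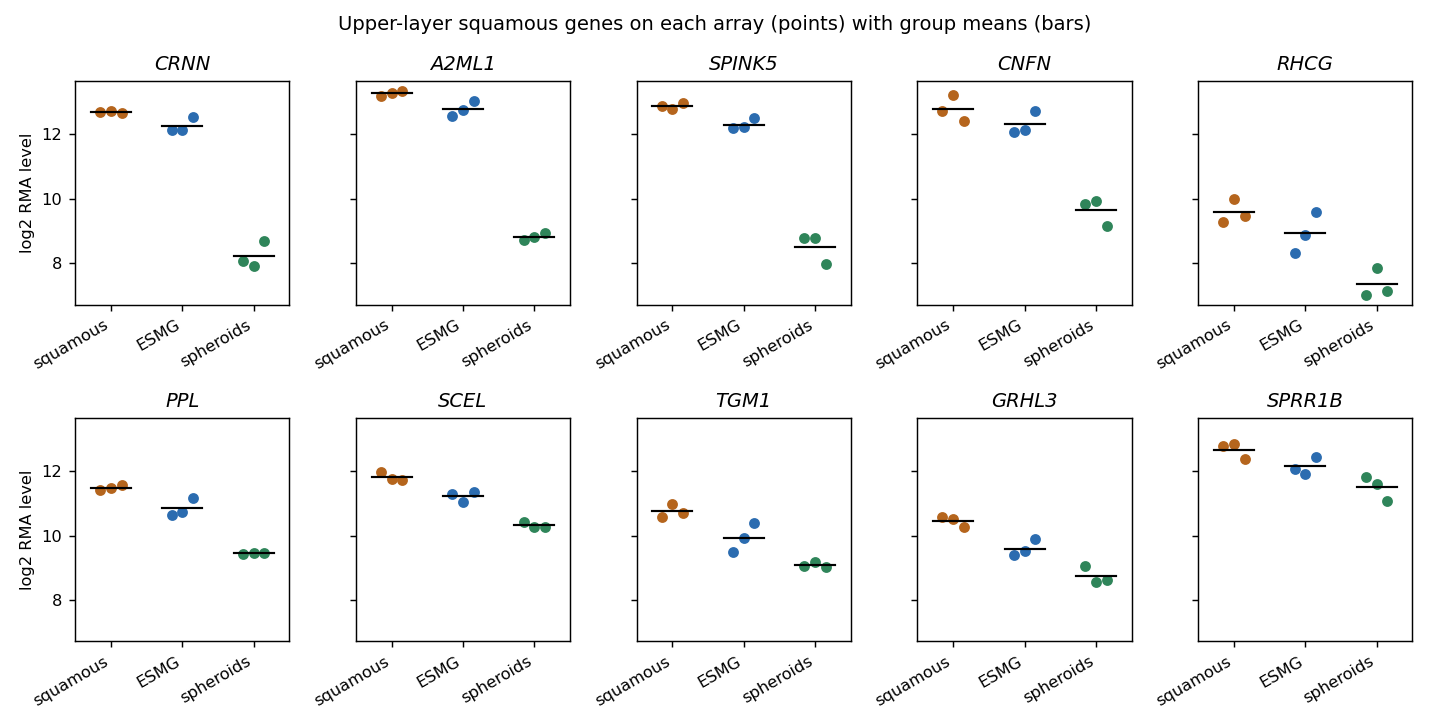
Log2 RMA level (y axis) of each gene on each of the 9 arrays, by group (x axis); points are arrays and horizontal bars are means of 3. For CRNN, A2ML1, SPINK5 and CNFN the ESMG points lie near the squamous ones and the spheroid points far below, whereas TGM1, GRHL3 and SPRR1B descend in similar steps.

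The first comparison set the levels of the upper-layer genes in the ESMG samples beside those in the lining of the same animals. Whether squamous lining was carried into the ESMG samples was not tested, so these levels are not assigned to gland cells. ESMG held all 10 transcripts at levels not far under those of squamous tissue: by mean, from 55.0% of the squamous level for GRHL3 to 74.9% for CRNN on the linear scale. CRNN, A2ML1 and CNFN, with the smallest differences, read 12.69, 13.28 and 12.80 in squamous tissue. TGM1 and GRHL3, with the largest, read 10.75 and 10.46. Not every gene followed that order: SPINK5 read 12.89 with a log2 difference of -0.58, and RHCG read 9.59 with -0.65. Those levels share no common scale, and the part of probe set level in the sizes was not tested. Of the 10 genes 0 were called, against 0.409% of all genes called lower in ESMG (limma). The median log2 difference was -0.58, and that of all genes was -0.06. Other lists had medians below 0 as well: the median of 16 basal-layer genes was -0.52, with 14 below 0 and 0 called, and that of 11 smooth muscle genes was -0.995 (log2), with 11 below 0 and 4 called lower (2 without the ESMG array of pig 37 or 39 or the squamous array of pig 37 or 40, and 9 without the ESMG array of pig 40). The mean level of both lists was lower in ESMG than in squamous tissue in each of the 3 pigs, and their part in the result was not tested. Without the fold minimum, a rule added after the values were seen, 4 genes were lower in ESMG at an adjusted p under 0.05, against 1.65% of all genes. On 7 of 10 genes every ESMG array lay below every squamous array, which was so for 11.7% of all genes.

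These 4 genes were GRHL3, PPL, SCEL and TGM1. GRHL3, a grainyhead-like transcription factor needed for the skin barrier in mice, read 10.57, 10.53 and 10.27 in squamous tissue of pigs 37, 39 and 40, and 9.39, 9.51 and 9.88 in ESMG. The difference was -0.86 (SE 0.18, adjusted p = 0.0157), and the groups did not overlap. TGM1, the membrane-bound transglutaminase that cross-links envelope proteins, read 10.59, 10.98 and 10.69 against 9.48, 9.93 and 10.40, a difference of -0.82 (SE 0.21, adjusted p = 0.0411).

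Periplakin (PPL), a plakin that ties the envelope to desmosomes and keratin filaments, read 11.43, 11.47 and 11.58 in squamous tissue and 10.64, 10.73 and 11.17 in ESMG (difference -0.64, SE 0.15, adjusted p = 0.0299). Sciellin (SCEL), an envelope precursor, differed by -0.58 (SE 0.14, adjusted p = 0.0304), again with no overlap between the groups.

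The other 6 genes did not pass at an adjusted p of 0.05. Differences were -0.42 for CRNN (95% confidence interval -0.85 to 0.02), -0.48 for A2ML1 (-0.80 to -0.15), -0.58 for SPINK5 (-1.04 to -0.13) and -0.48 for the envelope protein cornifelin (CNFN; -1.05 to 0.10). They were -0.52 for SPRR1B (-0.995 to -0.05) and -0.65 for RHCG (-1.34 to 0.03). Intervals of all 6 left room for falls of over 1.5-fold, so like levels in the 2 tissues were not shown. CNFN, SPRR1B and RHCG were the genes whose ESMG and squamous arrays overlapped, in each case through pig 40.

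Pig 40 stood apart within the animals as well. In pigs 37 and 39 all 10 genes were lower in ESMG than in the squamous tissue of the same animal, with medians of -0.71 and -0.82. In pig 40 only 7 of 10 were lower, the median was -0.29, and CNFN (0.31), RHCG (0.11) and SPRR1B (0.06) were higher in ESMG. The ESMG array of pig 40 held the highest level of its group for all 10 genes. That array also held the lowest gland level (above) and the highest level of its group for 16 basal-layer genes, 9.24 against 8.86 and 9.01, and for 11 smooth muscle genes, 10.21 against 9.74 and 9.50; the part of these in the result was not tested.

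**Figure D2:**
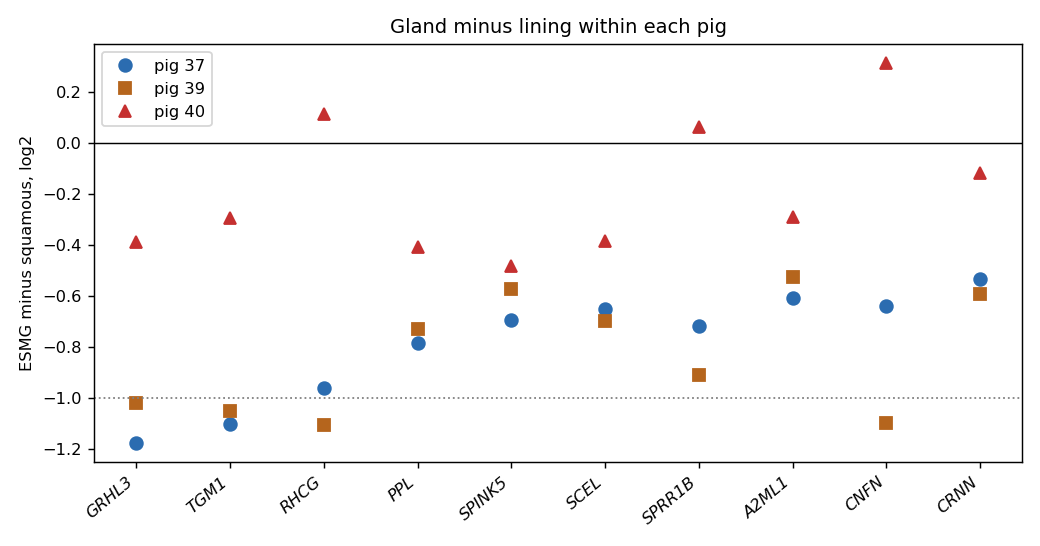
ESMG minus squamous log2 difference (y axis) within each of the 3 pigs for each gene (x axis); the solid line marks no difference and the dotted line a 2-fold lower level in ESMG. Pigs 37 and 39 lie below 0 for all 10 genes, and pig 40 lies nearest to 0 or above it.

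The calls at an adjusted p rested on few arrays. None of the 4 was left without the ESMG array of pig 37 or 39 or the squamous array of pig 37 or 39, and GRHL3 alone was left without the squamous array of pig 40, without spheroid array 1, in the fit of the 6 tissue arrays, and with pig as a fixed or random replicate block. With array weights 7 genes passed. Without the ESMG array of pig 40, 5 genes passed, and TGM1 (-1.05, adjusted p = 0.00379) and GRHL3 (-1.01, adjusted p = 0.00502) were then called at the 2-fold minimum.

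The second comparison set the levels in spheroids beside those in the ESMG samples. A fall here is a lower level than in bulk ESMG, and a loss from gland cells was not tested. On each of the 10 genes every spheroid array lay below every ESMG array, which held for 21.0% of all genes. Of the 10, 6 were called lower in spheroids and 0 higher, against 8.91% of all genes called lower; the other 4 were lower at an adjusted p under 0.05 but by less than 2-fold, and 17.6% of all genes were lower by that looser rule. The median log2 difference was -1.49, a 2.81-fold lower level, and that of all genes was 0.09. The falls were uneven: CRNN, A2ML1 and SPINK5 fell 13.9- to 16.4-fold, and 4 genes were under 2-fold.

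The structural proteins spanned that whole range. CRNN fell by 4.04 on the log2 scale, 16.4-fold (SE 0.20, adjusted p = 8.14e-08), with 3.42 between the highest spheroid and the lowest ESMG array. CNFN read 12.08, 12.14 and 12.74 in ESMG of pigs 37, 39 and 40 and 9.84, 9.94 and 9.16 in spheroids 1, 2 and 3. It fell 6.39-fold (log2 difference -2.68, SE 0.26, adjusted p = 1.19e-05).

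PPL read 9.44, 9.47 and 9.46 in spheroids, the narrowest group of any of the 10 genes, and fell 2.63-fold (log2 difference -1.39, SE 0.15, adjusted p = 2.64e-05). SCEL read 10.44, 10.27 and 10.26 in spheroids against 11.31, 11.06 and 11.35 in ESMG. It was 1.88-fold lower (log2 difference -0.91, SE 0.14, adjusted p = 0.000274). The fold minimum was passed after quantile normalization (-1.01), after cyclic loess (-1.06) and, barely, without the ESMG array of pig 39.

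SPRR1B, a small proline-rich protein that bridges other precursors in the envelope, differed least between spheroids and ESMG among the genes followed. It read 11.83, 11.61 and 11.08 in spheroids and 12.07, 11.92 and 12.45 in ESMG, and the groups were 0.09 apart at their nearest arrays. Its difference was -0.64 (95% confidence interval -1.11 to -0.17, adjusted p = 0.0322), 64.2% of the ESMG level. At an adjusted p of 0.05 that result was lost with array weights, with equal array medians, without the ESMG array of pig 37 or 40 and without spheroid array 2 or 3 (adjusted p up to 0.153 over the 17 settings).

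TGM1, which cross-links these proteins, read 9.04, 9.18 and 9.01 in spheroids against 9.48, 9.93 and 10.40 in ESMG. It was 1.81-fold lower (log2 difference -0.86, SE 0.21, adjusted p = 0.00582). It passed the fold minimum after cyclic loess (-1.03) and without the ESMG array of pig 37 (-1.08).

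The protease inhibitors fell together with CRNN. A2ML1, a relative of alpha-2-macroglobulin that traps proteases, read 12.59, 12.77 and 13.05 in ESMG and 8.72, 8.81 and 8.93 in spheroids, a 15.8-fold fall (log2 difference -3.98, SE 0.15, adjusted p = 1.73e-08). SPINK5, the source of the kallikrein inhibitor LEKTI, read 12.20, 12.22 and 12.51 in ESMG and 8.78, 8.78 and 7.97 in spheroids. It fell 13.9-fold (log2 difference -3.79, SE 0.21, adjusted p = 1.73e-07). For both genes the spheroid values lay more than 3 log2 units below the nearest ESMG array.

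GRHL3, the regulator, read 9.07, 8.57 and 8.64 in spheroids and was 1.78-fold lower than in ESMG (log2 difference -0.84, SE 0.18, adjusted p = 0.0029). It passed the fold minimum after cyclic loess (-1.01). RHCG, an ammonia channel of the Rhesus family that is abundant in squamous esophagus, read 8.33, 8.89 and 9.58 in ESMG and 7.03, 7.86 and 7.16 in spheroids, and fell 3.00-fold (log2 difference -1.59, SE 0.31, adjusted p = 0.0016).

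**Figure D3:**
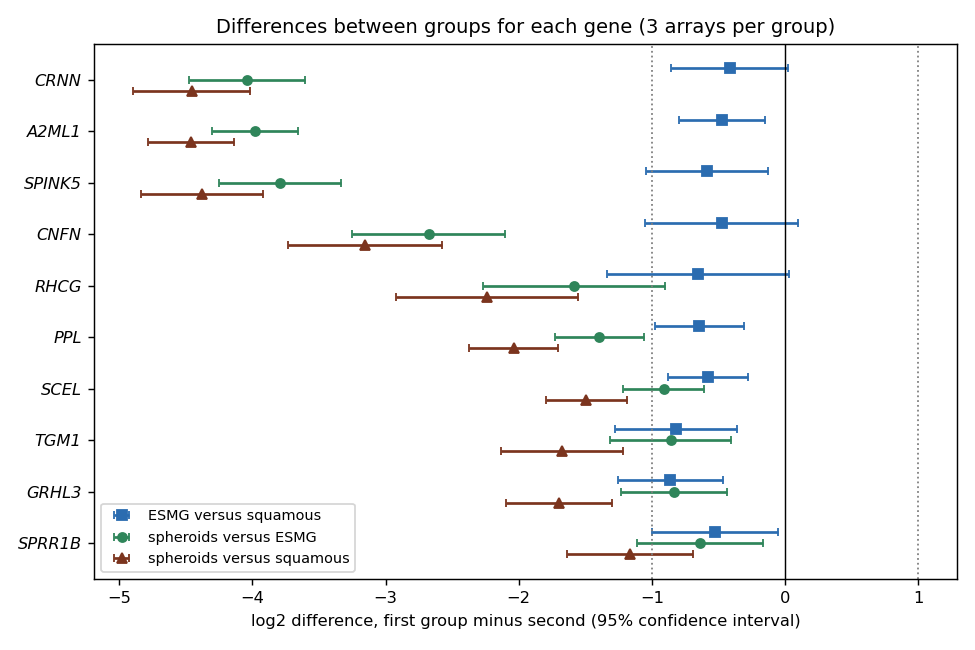
Log2 difference (x axis) of each gene (y axis) in the 3 comparisons, with 95% confidence intervals from limma; dotted lines mark 2-fold. In spheroids versus ESMG the intervals of CRNN, A2ML1 and SPINK5 (upper bounds -3.66 to -3.34) lie apart from those of PPL, SCEL, TGM1, GRHL3 and SPRR1B (lower bounds -1.73 to -1.11).

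Against squamous tissue, all 10 genes were called lower in spheroids, against 8.05% of all genes. The median was -2.14, a 4.40-fold lower level, and that of all genes was 0.03. A2ML1 fell 22-fold (log2 difference -4.46, SE 0.15, adjusted p = 6.3e-09), CRNN 21.9-fold (-4.46, SE 0.20, adjusted p = 3.24e-08) and SPINK5 20.8-fold (-4.38, SE 0.21, adjusted p = 4.82e-08). CNFN fell 8.89-fold, RHCG 4.72-fold, PPL 4.10-fold, GRHL3 3.24-fold, TGM1 3.20-fold and SCEL 2.81-fold.

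The smallest of the 10 falls was again that of SPRR1B, 2.24-fold (log2 difference -1.16, SE 0.22, adjusted p = 0.00108). Its call was lost without spheroid array 3 (-0.95) and with array weights (-0.96), where the difference came under 2-fold. The spheroid and squamous arrays did not overlap on any of the 10 genes, as on 21.9% of all genes. This comparison shares its squamous arrays with the first and its spheroid arrays with the second, so it is not a separate line of evidence.

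Placed side by side, the steps from squamous tissue to ESMG and from ESMG to spheroids differed between the genes. The first step lay between 0.42 (CRNN) and 0.86 (GRHL3), the second between 0.64 (SPRR1B) and 4.04 (CRNN). The shares given here, and the contrast that follows, thus mostly restate the falls from ESMG to spheroids. For CRNN, A2ML1, SPINK5 and CNFN, the ESMG mean had covered only 9.35%, 10.7%, 13.3% and 15.1% of the distance from the squamous to the spheroid mean. For GRHL3, TGM1 and SPRR1B it had covered 50.8%, 48.8% and 45.0%, and for SCEL, PPL and RHCG 38.8%, 31.5% and 29.2%. Both steps use the ESMG arrays, so a high ESMG value shortens one and lengthens the other. The first step was smallest for CRNN, A2ML1 and CNFN, which read high in squamous tissue (above). SPRR1B, at 12.67 there, read high too and had covered 45.0%. The part of probe set level in these shares was not tested.

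The difference between the steps was tested in the same limma fit, as spheroids minus 2 times ESMG plus squamous tissue, a contrast added after the values were seen. It was below 0 at an adjusted p under 0.05 for 4 of 10 genes, against 11.3% of all genes. These were CRNN at -3.62 (SE 0.35, adjusted p = 3.74e-05), A2ML1 at -3.51 (SE 0.26, adjusted p = 7.73e-06), SPINK5 at -3.21 (SE 0.36, adjusted p = 0.000106) and CNFN at -2.20 (SE 0.46, adjusted p = 0.0048). The same 4 passed under each of 3 normalizations and without each array in turn, with PPL added after quantile normalization, after cyclic loess and without the ESMG array of pig 37. For GRHL3 the contrast was 0.03 with a 95% confidence interval from -0.66 to 0.71, and for TGM1 -0.04 (-0.83 to 0.75), so those intervals reached moderate differences between the steps in either direction.

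**Figure D4:**
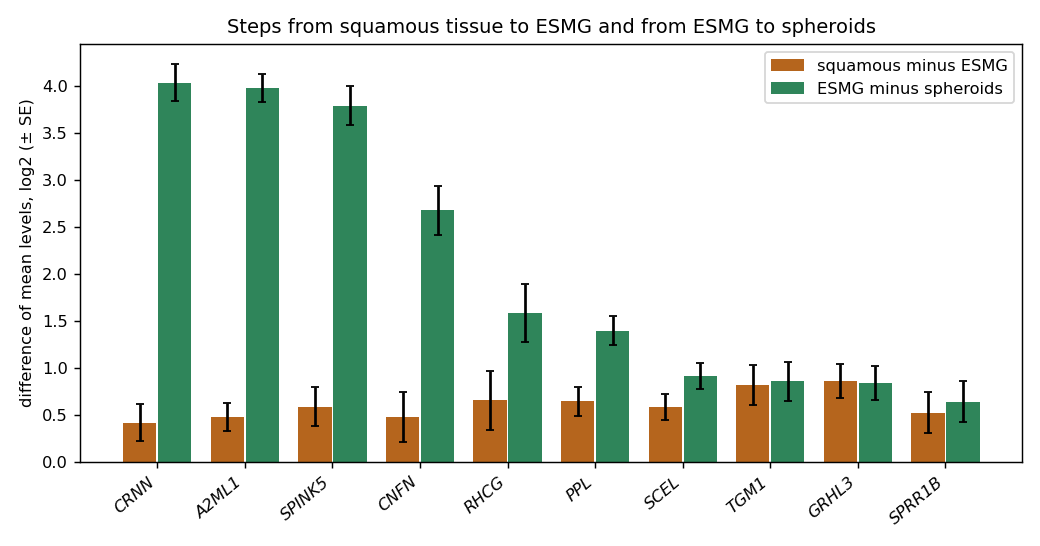
Difference of group means in log2 units (y axis, bars from 0, error bars ± SE of the limma fit) for the step from squamous tissue to ESMG and the step from ESMG to spheroids, for each gene (x axis). The second step is 2.68 to 4.04 for the 4 genes on the left, and both steps are alike in size for TGM1 and GRHL3.

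Other genes of the squamous program moved in both directions in spheroids. Lists of envelope and upper-layer proteins, transglutaminases and proteases with their inhibitors, barrier lipid enzymes, regulators, and desmosomes and junctions held 97 further measured genes. In spheroids versus ESMG, 19 of the 97 rose (19.6%, with 7.99% of all genes called higher) and 9 fell (9.28%, with 8.91% of all genes called lower), and their median was 0.24. Versus squamous tissue 13 rose (13.4%, with 8.61% of all genes called higher) and 17 fell (17.5%, with 8.05% of all genes called lower). Their median there was 0.04, and between -0.02 and 0.17 under the alternatives. In ESMG versus squamous tissue 3 were higher (PI3, PKP2 and CLDN8) and 2 lower (CDSN and TGM2), with a median of -0.34. These were 3.09% and 2.06% of the 97, with 2.65% and 0.409% of all genes called higher and lower. The calls of CDSN and TGM2 were each lost under 10 of the alternatives, cyclic loess, the fit of the 6 tissue arrays and pig as a random replicate block among them, and that of PKP2 under 4. With the random block 3 genes were higher and 0 lower, with pig as a fixed block 3 and 3, and with array weights 3 and 7. Without the ESMG array of pig 37 or 39, 2 were higher and 0 lower, and without the squamous array of pig 37 or spheroid array 1, 3 and 0. Without the squamous array of pig 39 or 40, 2 were higher and 1 lower. Many keratins and envelope genes such as IVL, KRT13 and KRT4 are not analysed here. The shares of all genes given here also stand beside the counts of the single lists that follow. No list was tested as a set.

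Among 18 envelope and upper-layer genes, 4 rose and 1 fell in spheroids versus ESMG. The antimicrobial S100A7, a squamous calcium-binding protein, fell 18.7-fold (log2 difference -4.22, SE 0.25, adjusted p = 3.1e-07), close in size to CRNN. Dermokine (DMKN), a secreted protein of upper epidermal layers, rose 4.08-fold (2.03, SE 0.19), and corneodesmosin (CDSN), an adhesive protein of cornified cells, rose 2.75-fold (1.46, SE 0.31). DMKN read 6.50 in ESMG, under the lowest array median of 6.84, so the size of its rise depends on dim values. PADI1 and PADI3, enzymes that modify arginine in envelope proteins, were the other 2 that rose (1.11 and 1.04). Without the ESMG array of pig 37 the risers numbered 2, and without that of pig 39 a second gene fell. Desmoplakin (DSP), a plakin of desmosomes, had a difference of -0.04 (adjusted p = 0.861). Versus squamous tissue DMKN rose, and S100A7 and RPTN fell. RPTN lost its call without the squamous array of pig 37 or 40. It read 6.02 in squamous tissue and 4.70 in spheroids, the latter under the lowest lower quartile of the arrays (5.36).

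Of 14 genes of transglutaminases, proteases and inhibitors, 4 rose and 1 fell in spheroids versus ESMG. Matriptase (ST14), a surface protease of epithelium, rose 3.74-fold (1.90, SE 0.13, adjusted p = 7e-07), and the serpin SERPINB2 rose 3.52-fold (1.82, SE 0.32). The protease TMPRSS4 (3.29-fold) and CASP14, the caspase of cornifying cells (1.13), rose as well. SERPINB7, a serpin of upper epidermis, fell 4.23-fold (-2.08, SE 0.26, adjusted p = 6.1e-05), in the same direction as A2ML1 and SPINK5; a second gene of the list fell after cyclic loess and without the ESMG array of pig 39. TGM2, a transglutaminase of many cell types, was lower in ESMG than in squamous tissue (-1.07, adjusted p = 0.0388), and elafin (PI3), an elastase inhibitor, was higher there (2.27, SE 0.34).

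Barrier lipid genes were divided, with 6 of 24 rising and 4 falling in spheroids versus ESMG. The falls were in ELOVL4, which makes very long-chain fatty acids (-2.82, SE 0.14), CERS3, the ceramide synthase that uses them (-1.79, SE 0.16), the lipase cofactor ABHD5 (-1.49) and the fatty acid carrier FABP5 (-1.64). The rises included the lipoxygenase ALOX12 (2.44, SE 0.21) and ABCA12, a lipid transporter of epidermal granules (1.59, SE 0.20). In ESMG these 2 genes read 5.95 and 5.91, under the lowest array median of 6.84, so the sizes of their rises depend on dim values. The same 4 genes fell versus squamous tissue, where ALOX12 and the sphingomyelinase SMPD1 (1.22) rose.

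Of 28 regulators, 3 rose and 2 fell in spheroids versus ESMG. Of all genes, 7.99% were called higher there and 8.91% lower, so these counts set the regulators little apart. PRDM1, a repressor expressed in upper squamous layers, fell by 1.91 (SE 0.18, adjusted p = 9.5e-06) and the nuclear receptor RORA fell by 2.28 (SE 0.21). The Notch ligand JAG1 (1.52), TFAP2C (1.16) and the kinase RIPK4 (1.06) rose. The risers numbered 5 without spheroid array 3, and the genes that fell numbered 4 after cyclic loess. GRHL2, the relative of GRHL3 that acts throughout epithelia, had a difference of 0.04 (adjusted p = 0.903), while that of GRHL3 was -0.84. Versus squamous tissue 6 fell, among them PRDM1, RORA, HOPX (-1.13) and BARX2 (-1.44), and CEBPB rose (1.10). That call was lost after quantile normalization, after cyclic loess and without spheroid array 2, and 2 regulators rose with equal array medians, without the squamous array of pig 40 and without spheroid array 3.

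Among 13 desmosome and junction genes, the claudin CLDN17 fell 32.5-fold in spheroids versus ESMG (difference -5.02, SE 0.23, adjusted p = 5.1e-08), more than any of the 10 upper-layer genes. It read 10.57 ± 0.40 in ESMG and 5.55 ± 0.40 in spheroids (SD, n = 3 each). Its mean spheroid level lay within the range of the arrays' lower quartiles (5.36 to 5.65), so that fold depends on values near the floor. The connexin GJB5 (3.09, SE 0.22) and the claudin CLDN4 (1.67, SE 0.30) rose. Versus squamous tissue 5 genes rose and 2 fell, CLDN17 and the desmocollin DSC1 (-1.24); without the squamous array of pig 40 only 3 rose.

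**Figure D5:**
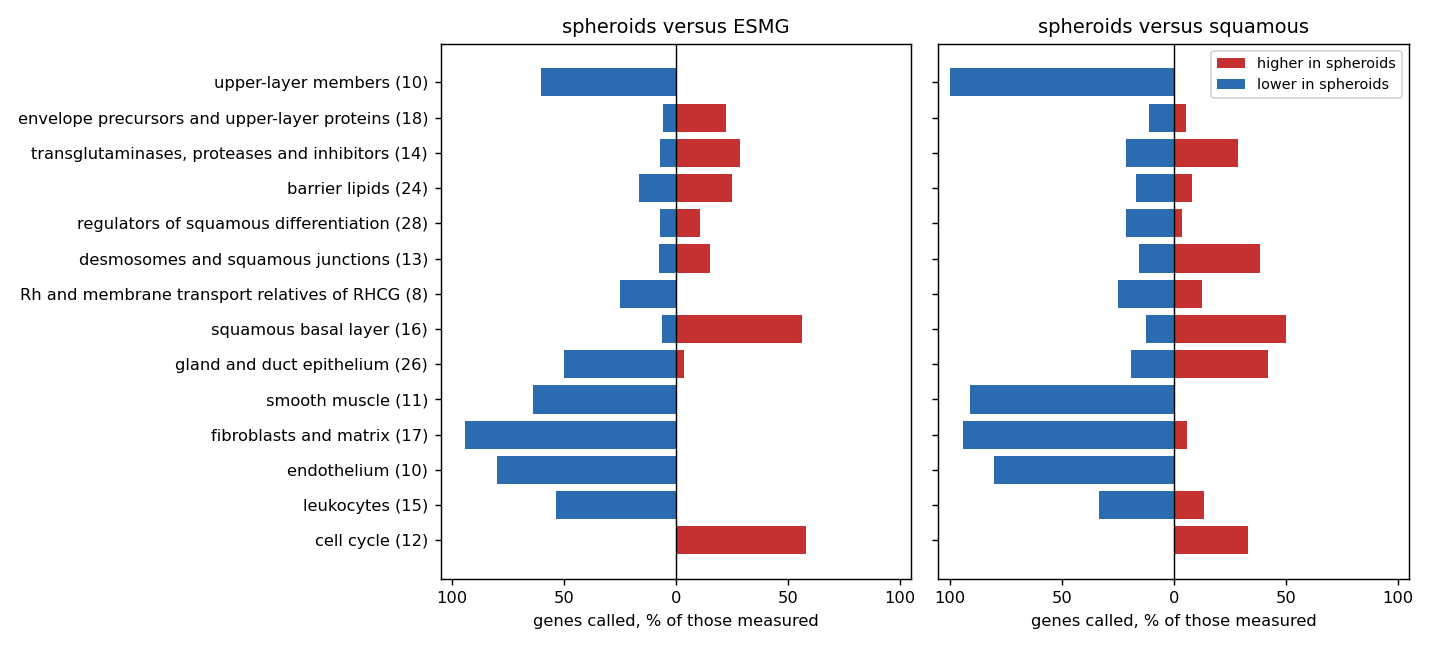
Share of measured genes called higher (right of 0) or lower (left of 0) in spheroids, in percent of each list (number measured in brackets), versus ESMG and versus squamous tissue. The 10 upper-layer genes lie wholly on the lower side, and the 5 squamous lists below them have genes on both sides.

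Other cell types moved in the same spheroid comparisons. Versus ESMG, 7.99% of all genes were called higher in spheroids and 8.91% lower. Of 26 gland and duct genes 1 (KRT19) rose and 13 fell versus ESMG, with a median of -1.65. KRT19 read 11.07 in ESMG and 12.94 in spheroids, KRT8 of the same list 11.20 and 11.47, and LPO of that list 12.10 and 6.43. Of 16 basal-layer genes 9 rose and 1 fell versus ESMG, led by BNC1, a basal keratinocyte zinc finger protein (4.30, SE 0.18), and the integrin ITGA3 (3.05, SE 0.17); only KRT15, a basal keratin, fell (-2.89, SE 0.39). BNC1 read 6.34 in ESMG, under the lowest array median of 6.84, so the size of its rise depends on dim values. Of 12 cell cycle genes 7 rose and 0 fell, led by UBE2C (2.75, SE 0.17). Fibroblast genes fell in 16 of 17, smooth muscle genes in 7 of 11, endothelial genes in 8 of 10 and leukocyte genes in 8 of 15 (5 of 15 without the ESMG array of pig 37).

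The mean level of the fibroblast list was 11.04 to 11.39 on the ESMG arrays, 10.99 to 11.30 on the squamous arrays and 7.43 to 7.81 on the spheroid arrays. That of the smooth muscle list was 9.50 to 10.21, 10.57 to 10.92 and 7.15 to 7.44. No detection call was used, so none of these markers is read as absent. ACTA2, the smooth muscle actin, read 12.62 in ESMG and 6.73 in spheroids, and MGP, a matrix protein of fibroblasts, read 12.20 and 5.18. These were the largest falls of their lists. The markers with the highest mean over all 9 arrays fell less: SPARC of the fibroblast list read 12.50 and 11.16, and TAGLN of the smooth muscle list 11.90 and 10.24. Those means include the spheroid arrays, so the choice favours markers that stayed high there. ACTG2 of the smooth muscle list, above TAGLN in ESMG, read 12.82 and 7.34. CFD of the fibroblast list read 10.39 and 10.57, and LCP1 of the leukocyte list 9.51 and 9.52. The part of these cell types in the falls of the upper-layer genes was not tested.

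By correlation over the 9 arrays with the mean standardised profile of the 10 genes, the most similar other genes were CITED2 (r = 0.995), CERS3 (0.994), A2M (0.994), ADGRL1 (0.993), CPVL (0.992) and SYNPO2 (0.992). These points share 3 groups that lie far apart, so such values are descriptions only. CERS3 also belongs to the barrier lipid list, while SYNPO2, an actin-binding protein of smooth muscle, read 9.03, 10.32 and 5.56 in ESMG, squamous tissue and spheroids. A2M, the plasma protease inhibitor related to A2ML1, read 9.25, 10.54 and 5.73.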

How the data were processed

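The authors deposited log2 RMA levels for every probe set and array, made with Expression Console software, per the labels. The submitters' processing notes also list Transcriptome Analysis Console 3.0. RMA gives all arrays like distributions, which hides differences in total RNA and narrows those of dim genes. With a genome build not given in the sources used here, no coordinates are printed. Array medians were 6.84 to 7.04, and 0 value columns were left unmatched.

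Of 27558 probe sets, 13157 had 1 gene symbol in the platform annotation; 12841 were matched by gene number to the RefSeq table of the pig assembly. The probe set with the highest mean stood for a gene. Means of the 3 groups were estimated from all 9 arrays in limma 3.58.1 (R 4.3.3, statmod 1.5.0; 6 residual degrees of freedom), with two-sided Benjamini-Hochberg adjusted p over 12217 genes. The script was tested on simulated data. Tables and plots used Python 3.11.15, pandas 2.3.3, numpy 2.4.6 and matplotlib 3.10.9.

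The titles pair ESMG and squamous arrays by pig. Deviations from the group means correlated at 0.42, -0.15 and -0.17 for pigs 37, 39 and 40, and the fit with pig as a block was an alternative. Between ESMG and squamous arrays of different pigs the correlations were -0.31 to 0.37. Other alternatives were 3 normalizations, a filter on dim genes, array weights, a variance trend, averaged probe sets, 2 groups only and each array left out.

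The 10 genes and the lists were chosen with earlier results of these data known. Named genes were drawn from the 10 and, in each list and comparison, the 2 called genes with the largest rise and the 2 with the largest fall. KRT5, KRT8, AGR2, the brightest marker of each cell type list and the closest profiles were added. Not every gene that this rule picks is printed. Other list members were named after their values were seen, among them DSP, GRHL2, PADI1, PADI3, CASP14, ABHD5, FABP5, RIPK4, HOPX and BARX2.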

Additional observations from a re-analysis of the deposited data

How the results depend on the processing

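Directions of the 10 upper-layer genes held in every comparison and setting run: 19 alternatives for ESMG versus squamous tissue and 17 for either spheroid comparison. Calls between ESMG and squamous tissue numbered 0, with 1 (GRHL3) under array weights, 0 with pig as a fixed or random replicate block, and 0 to 2 over the fits without 1 array. Over such fits, the median of the 10 genes in spheroids versus ESMG ranged from -1.69 (without the ESMG array of pig 37) to -1.25 (without that of pig 40). That median was -1.49 in the fit of all arrays, and 9 of the 10 genes were called after cyclic loess in place of 6; the cause was not tested. Among the 97 other squamous genes, calls between ESMG and squamous tissue numbered 5, with 3 after cyclic loess, 6 with pig as a fixed replicate block, 3 with the random block, 10 with array weights and 2 to 6 over the fits without 1 array. With pig as a fixed block, 1 of the 4 genes at an adjusted p under 0.05 (GRHL3) was left, and the block changed no call at the 2-fold minimum among the 10 genes. Equal array medians moved the median of all genes from 0.09 to 0.20 in spheroids versus ESMG and from 0.03 to 0.16 versus squamous tissue, where the split of all calls became 1370 higher and 834 lower in place of 1052 and 983. With 3 arrays per group and no detection calls, small differences and levels near the floor are the least certain.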

Other observations

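The spheroid arrays did not vary together on the upper-layer genes. Spheroid array 3 held the highest CRNN (8.70, against 8.06 and 7.93) and A2ML1 (8.93, against 8.72 and 8.81), and the lowest SPINK5 (7.97, against 8.78 and 8.78), CNFN (9.16, against 9.84 and 9.94) and SPRR1B (11.08, against 11.83 and 11.61). After the group means were taken out, CRNN had a correlation of -0.01 over the 9 arrays with the mean of the other 9 genes, while TGM1 (0.87), CNFN (0.80) and PPL (0.76) followed it closely; the arrays are few and share their groups, so these are descriptions. The genes that tracked CRNN most closely within groups were PLXNA2 (r = 0.964), FOXM1 (0.955) and PSMC3 (0.953), which were higher in spheroids than in either tissue by mean, unlike CRNN. These correlations were the highest in a search over the other named genes tested, so they too are descriptions only.

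Among 8 measured transport genes set beside RHCG, the Rhesus relatives RHAG and RHBG had differences of -0.05 and -0.31 in spheroids versus ESMG (adjusted p = 0.824 and 0.210), and were named after their values were seen. AQP3, the glycerol and water channel of squamous epithelium, read 12.16 ± 0.17 in ESMG, 12.41 ± 0.08 in squamous tissue and 10.93 ± 0.53 in spheroids (SD, n = 3 each) and fell 2.34-fold versus ESMG (log2 difference -1.23, SE 0.22, adjusted p = 0.000988), a call lost without spheroid array 2 and with array weights. SLC16A7, a monocarboxylate carrier, fell by 2.22 (SE 0.26). In ESMG versus squamous tissue SLC5A1, the glucose carrier SGLT1, was higher by 1.08 and ATP1B1, a subunit of the sodium pump, by 1.88; the call of SLC5A1 did not hold without ESMG of pig 37, nor without squamous tissue of pig 40.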
